A study of Mus musculus with 2 samples.

Results

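The microRNA genes Mir214, Mir140, Mir199b, Mir199a-2 and Mir199a-1 are the mouse hairpins of miR-214, miR-140 and miR-199, which are best known from mesenchyme and cartilage. They were chosen by name and are 5 of the 1973 genes in the count tables. Small RNA shorter than 30 nt had been sequenced from the forebrain of healthy B6NCrl mouse embryos, male and female pooled, at 10.5 days of development. The design holds 1 group of 2 libraries, replicate 1 from 69 embryos and replicate 2 from 51 embryos, with no treatment, mutant or other tissue beside them. Both pools carry the same donor label. The p-values set the difference between these pools against counting error only, with no estimate of the variation among pools.

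A miRNA is cut from a hairpin in a longer transcript, and its mature strand of about the length sequenced here guides silencing of mRNAs that pair with its seed, bases 2 to 8. In the mouse embryo, miR-199a and miR-214 come from Dnm3os, a non-coding RNA made from the opposite strand of the dynamin gene Dnm3, which is known from head and limb mesenchyme, depends there on the transcription factor Twist1 and is needed for normal skeletal growth. The miR-140 hairpin lies in Wwp2, a ubiquitin ligase gene of cartilage that is switched on together with it by Sox9, and loss of miR-140 in mice shortens the skull and limbs. The forebrain wall itself is neuroepithelium. Mesenchyme of the neural crest and mesoderm lies directly over it.

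The seeds sort the annotated mature miRNAs of these hairpins into groups. They are shown because reads that fit several loci were given to no gene, so what the hairpins share decides what could be counted. Capitals mark the seed, and all sequences are RefSeq's for GRCm38.p6, in which 5 of 5 hairpins were found.
miR-214-5p: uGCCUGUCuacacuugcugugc
miR-214-3p: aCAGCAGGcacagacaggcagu
miR-140-3p: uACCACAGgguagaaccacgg
miR-199a-5p: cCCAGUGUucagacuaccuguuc
miR-199a-3p and miR-199b-3p: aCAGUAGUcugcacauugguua

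The mature miR-199a-3p sequence is present in 3 hairpins, Mir199a-1, Mir199a-2 and Mir199b, and is letter for letter the same as miR-199b-3p. The miR-199a-5p sequence is present in 2, Mir199a-1 and Mir199a-2. Each of miR-214-5p, miR-214-3p and miR-140-3p is present in 1 hairpin only among the 1005 in the RefSeq table. In that table Mir140 has only miR-140-3p annotated and Mir199b only miR-199b-3p. Any strand from the other side of these hairpins was left out of the seed search. Outside these hairpins the miR-214-3p seed recurs in miR-761, from a gene with 0 counts in both libraries, which allows up to 0.921 CPM (gene counts scaled to a library total of 1000000) in replicate 1 and 0.839 CPM in replicate 2. The miR-140-3p seed recurs in miR-497b, whose gene had 1 count in each. No gene outside the family shares the miR-199 seeds in that table.

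The hairpins themselves are shown with the mature sequences of the RefSeq table in capitals.
Mir214: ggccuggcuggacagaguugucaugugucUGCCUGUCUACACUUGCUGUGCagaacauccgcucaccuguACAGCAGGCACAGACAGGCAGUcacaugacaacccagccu
Mir140: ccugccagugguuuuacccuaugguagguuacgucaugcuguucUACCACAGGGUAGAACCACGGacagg
Mir199b: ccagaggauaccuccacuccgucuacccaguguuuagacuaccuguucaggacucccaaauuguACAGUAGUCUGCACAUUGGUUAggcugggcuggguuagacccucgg
Mir199a-2: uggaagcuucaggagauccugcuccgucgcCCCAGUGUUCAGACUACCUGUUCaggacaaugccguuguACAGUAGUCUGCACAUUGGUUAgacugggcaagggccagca
Mir199a-1: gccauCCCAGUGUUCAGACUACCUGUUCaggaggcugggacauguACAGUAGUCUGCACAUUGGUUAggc

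The miR-199 hairpins differ from each other mainly outside these strands. Compared with miR-199a-5p, the best-matching stretch of the Mir199b hairpin, bases 26 to 48, has 1 mismatch, C10U, counted from the 5′ end of miR-199a-5p and marked here by a capital.
Mir199b, bases 26 to 48: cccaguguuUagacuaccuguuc

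Cut into windows of 22 bases, the Mir199a-1 hairpin shared 13 of its 49 windows with another miR-199 hairpin. Mir199a-2 shared 12 of 89 and Mir199b shared 8 of 89, while Mir214 and Mir140 shared 0 of 89 and 0 of 49 windows with any hairpin. The longest run common to Mir199a-2 and Mir199a-1 was 27 bases, and the runs that Mir199b has in common with Mir199a-2 and Mir199a-1 were 27 and 28 bases. In the GENCODE M21 transcripts, windows of Mir140 were found elsewhere only in its host Wwp2 and windows of Mir214 only in its host Dnm3os. The rest of the genome was not searched. A read lying wholly inside a shared stretch has no single place, so the 3 miR-199 levels leave such reads out.

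**Figure D1:**
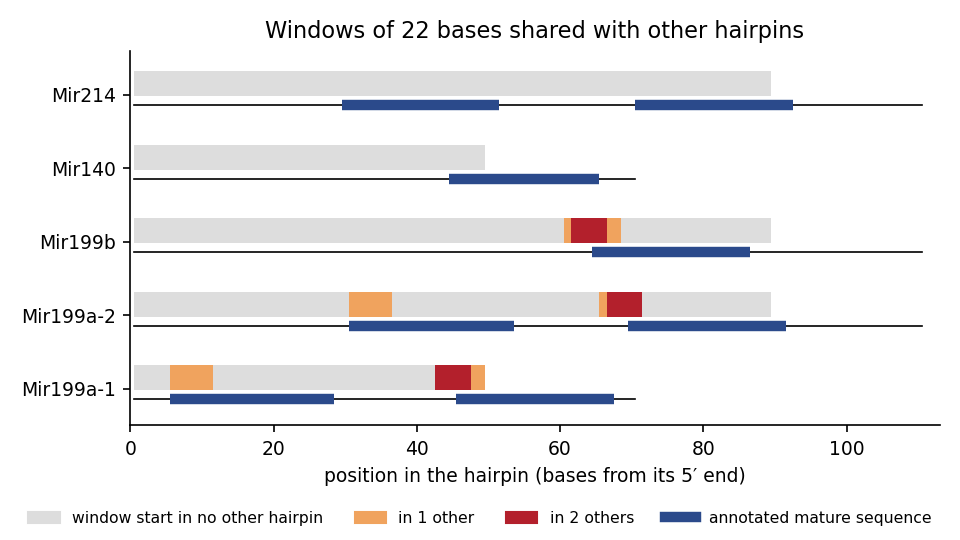
Windows of 22 bases along each hairpin, placed by the position of their start from the 5′ end of the hairpin, coloured by how many other hairpins of the RefSeq table hold them; blue bars are the annotated mature sequences. Shared windows start at or beside the mature sequences of the 3 miR-199 hairpins, and Mir214 and Mir140 have none.

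The hairpins sit on 4 chromosomes of mm10, coordinates being 1-based. Mir199a-2 (ENSMUSG00000070126.1) is at chr1:162217814-162217923 and Mir214 (ENSMUSG00000065516.1) at chr1:162223368-162223477, both on the plus strand with 5444 bases between them. Both overlap an exon of Dnm3os on the same strand, in 5 and 3 of its 6 transcripts, and an intron of Dnm3 on the opposite strand. Mir199b (ENSMUSG00000092807.1) is at chr2:32318460-32318569 on the plus strand, opposite an intron of Dnm1. Mir199a-1 (ENSMUSG00000065547.1) is at chr9:21496495-21496564 on the minus strand, opposite an intron of Dnm2. Mir140 (ENSMUSG00000065439.1) is at chr8:107551244-107551313 on the plus strand within Wwp2, where 1 of the 11 annotated Wwp2 transcripts has an exon that overlaps it.

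The levels rest on library totals of 3256070 gene counts for replicate 1 and 3574530 for replicate 2, of 8559330 and 9664755 reads. Reads that mapped to several places, given to no gene, numbered 2577249 in replicate 1 and 2780180 in replicate 2. How many of those were miR-199 cannot be told from the tallies. The libraries were counted as 2 samples, since the labels give them as biological replicates, pools of 69 and 51 embryos. They differed beyond counting error, with a chi-square over genes of 45.4 times its degrees of freedom.

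The 5 hairpins together took 0.785% of all gene counts of replicate 1 (0.775 to 0.794, 95% exact interval) and 0.757% of those of replicate 2 (0.748 to 0.766), or 0.771% ± 0.020 (SD, n = 2). These Clopper-Pearson intervals cover counting error only. Mir214 supplied 48.9% and 51.0% of that sum and Mir140 43.6% and 40.4%, so this pair held nearly all of the sum as counted. Mir199b supplied 6.53% and 7.58%. Mir199a-2 and Mir199a-1 each made up under 1% of it in both libraries. Reads inside stretches that the miR-199 hairpins share were not counted. The miR-199 counts, and with them the summed count, are therefore lower limits, and how large a part miR-199 holds cannot be told. Whether a low share means fewer cells of a type or less RNA per cell cannot be told apart in tissue RNA, and which forebrain or overlying cells the reads came from was not tested.

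Mir214, the most abundant of the 5, had 12503 counts in replicate 1 and 13801 in replicate 2. These counts were 3840 CPM (3773 to 3908, 95% exact interval) and 3861 CPM (3797 to 3926), a mean of 3850 ± 15 CPM (SD, n = 2). The levels were nearly equal and placed it 53rd in replicate 1 and 51st in replicate 2 among all genes. The coefficient of variation was 0.39%.

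Mir140 had 11125 counts in replicate 1 and 10929 in replicate 2. Its levels of 3417 CPM (3354 to 3481) and 3057 CPM (3000 to 3115) ranked 56th and 61st. They averaged 3237 ± 254 CPM (SD, n = 2), and the counting intervals of the libraries did not overlap. Mir140 stayed below Mir214 in both libraries, by 1.12-fold in replicate 1 and 1.26-fold in replicate 2.

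That order rests on counting reads, not bases. Fragments under 30 nt were sequenced, about as long as a mature miRNA, so reads were not divided by the length of the hairpin. Per base of the annotated mature sequences Mir214 kept its lead, with 175 CPM per base in both libraries against 163 and 146 CPM per base for Mir140. Per base of the annotated hairpins, 110 bases for Mir214 and 70 for Mir140, the order turned, with 34.9 and 35.1 CPM per base for Mir214 against 48.8 and 43.7 CPM per base for Mir140.

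Mir199b had 1669 counts in replicate 1 and 2051 in replicate 2. Its levels were 513 CPM (488 to 538) and 574 CPM (549 to 599), or 543 ± 43 CPM (SD, n = 2), at ranks 134 and 130. As counted, it was the highest of the miR-199 hairpins, and all of them leave out reads of the shared strands. Mir214, which shares no window, exceeded Mir199b 7.49-fold in replicate 1 and 6.73-fold in replicate 2. These ratios may therefore overstate the difference between the hairpins. An annotated small gene next to Mir199b, Gm23363, on the same strand with 116 bases between them, had 4 and 2 counts.

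Mir199a-2 had 236 counts in replicate 1 and 260 in replicate 2, which is 72.5 CPM (63.5 to 82.3) and 72.7 CPM (64.2 to 82.1). These levels could not be told apart by their counting intervals. It shares the Dnm3os transcript with Mir214, which had 53.0 times as many counts in replicate 1 and 53.1 times as many in replicate 2. The Mir199a-2 count leaves out reads of the shared strands, so this ratio may overstate the difference between the hairpins.

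Mir199a-1 had 12 and 14 counts, or 3.69 CPM (1.90 to 6.44) in replicate 1 and 3.92 CPM (2.14 to 6.57) in replicate 2. Both values lay above the 0.921 and 0.839 CPM that a count of 0 allows. Mir199a-2 had 19.7 times as many counts in replicate 1 and 18.6 times as many in replicate 2. Among the miR-199 hairpins, the order of counts, Mir199b above Mir199a-2 above Mir199a-1, ran opposite to the order of the percent of windows shared, 8.99%, 13.5% and 26.5%. The percents depend on the annotated length, 110 bases for Mir199b and Mir199a-2 but 70 for Mir199a-1. As numbers, the shared windows were 8, 12 and 13, nearly equal for Mir199a-2 and Mir199a-1. How far the shared windows set the order of counts was not tested. The 3 miR-199 hairpins together held 620 ± 44 CPM (SD, n = 2). On the opposite strand each of the 5 hairpins had 0 counts in both libraries.

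**Figure D2:**
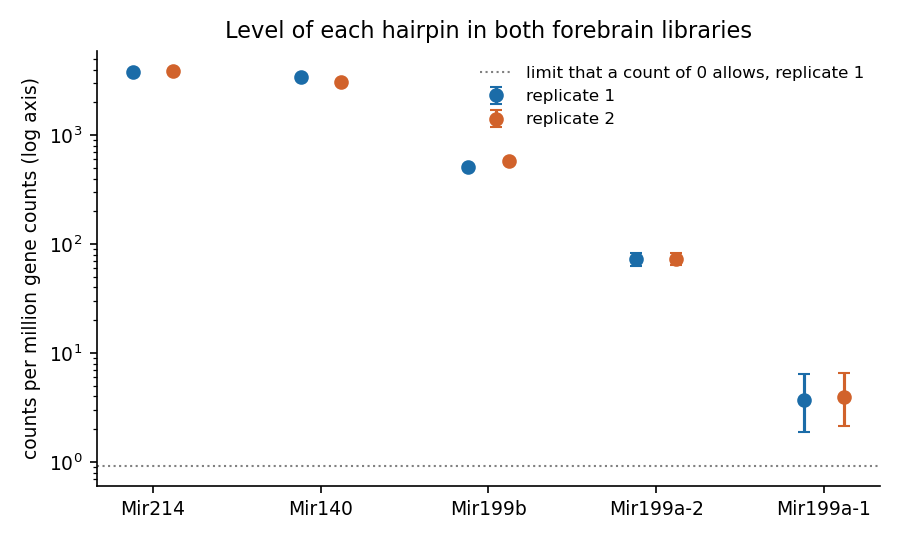
Level of each hairpin in CPM on a log axis; points are the 2 libraries, bars the 95% exact counting interval (hidden behind the point for high counts), and the dotted line the 0.921 CPM that a count of 0 allows in replicate 1. Levels run from 3840 and 3861 CPM for Mir214 down to 3.69 and 3.92 CPM for Mir199a-1, and no hairpin overlaps its neighbour in the order.

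Among the 739 genes with a count in either library, the hairpins were spread over a wide range. Mir214 and Mir140 stood at ranks 52 and 58 of the mean level, Mir199b at 133, Mir199a-2 at 233 and Mir199a-1 at 383. Over the 401 genes whose counts averaged at least 10, the median level was 161 CPM, so Mir214, Mir140 and Mir199b lay above it and both miR-199a hairpins below. All 5 hairpins passed that filter, Mir199a-1 by a few counts.

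**Figure D3:**
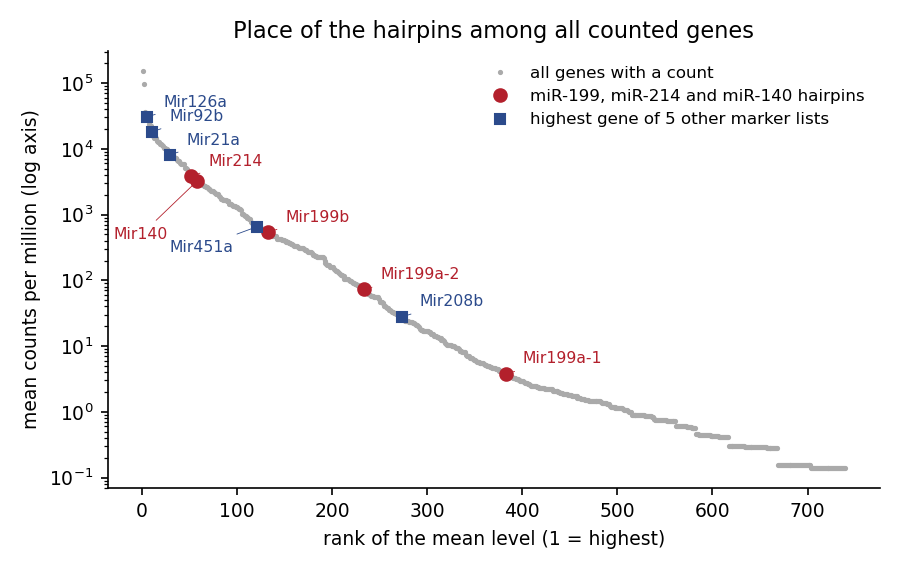
Mean level of every gene with a count (CPM, log axis) against its rank, with the 5 hairpins as red circles and the highest genes of 5 other marker lists as blue squares. Mir214 and Mir140 stand close together at ranks 52 and 58, and the miR-199 hairpins at ranks 133, 233 and 383.

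The libraries were compared gene by gene to see which of these levels moved beyond counting error. An exact binomial test, two-sided, asked whether the counts of a gene were divided between the libraries in proportion to their TMM-scaled sizes, and p-values were adjusted by Benjamini-Hochberg over all 401 genes tested. It compares these 2 libraries and no conditions. Of the 5 hairpins 2 were called, against 43.4% of all genes tested. In replicate 1, 1 was higher (19.7% of all genes) and 1 lower (23.7% of all genes). With a fold above 1.5 also required, 0 of 5 were called, against 5.74% of all genes. The members' median log2 ratio was −0.04, beside −0.03 over all genes tested.

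Mir140 was higher in replicate 1 by 0.13 on the log2 scale (95% exact interval 0.09 to 0.17, adjusted p = 1.33e-10, exact binomial test). Mir199b was lower in replicate 1, at −0.19 (−0.29 to −0.10, adjusted p = 0.000157, exact binomial test). The size of these differences was ordinary: 239 of 401 genes, itself counted, had a ratio at least as large in size as Mir140 and 177 one at least as large as Mir199b, and the median size was 0.17.

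Mir214 had a ratio of −0.04 (−0.07 to −0.004, adjusted p = 0.068, exact binomial test) and was not called. With TMM factors taken over all genes instead of those passing the filter, an alternative added after the data were seen, its ratio was −0.06 and its adjusted p 0.00155 in the exact binomial test. Over all alternatives its adjusted p ran from 0.00155 to 0.842. Mir199a-2 had −0.04 (−0.30 to 0.22) and Mir199a-1 −0.11 (−1.36 to 1.10), with adjusted p = 0.92 and 0.95 in the exact binomial test. At 12 and 14 counts the interval of Mir199a-1 reached past 2-fold in both directions, so differences of that size were not detectable.

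Between hairpins, the ratio of Mir140 to Mir199b was higher by 0.32 on the log2 scale in replicate 1 than in replicate 2. For the other pairs it was smaller in size, down to −0.0028 for Mir214 over Mir199a-2, where 236 and 260 counts of Mir199a-2 limit the precision. Mir214 over Mir140 was 0.17 in replicate 1 and 0.34 in replicate 2. These log2 ratios need no library size.

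**Figure D4:**
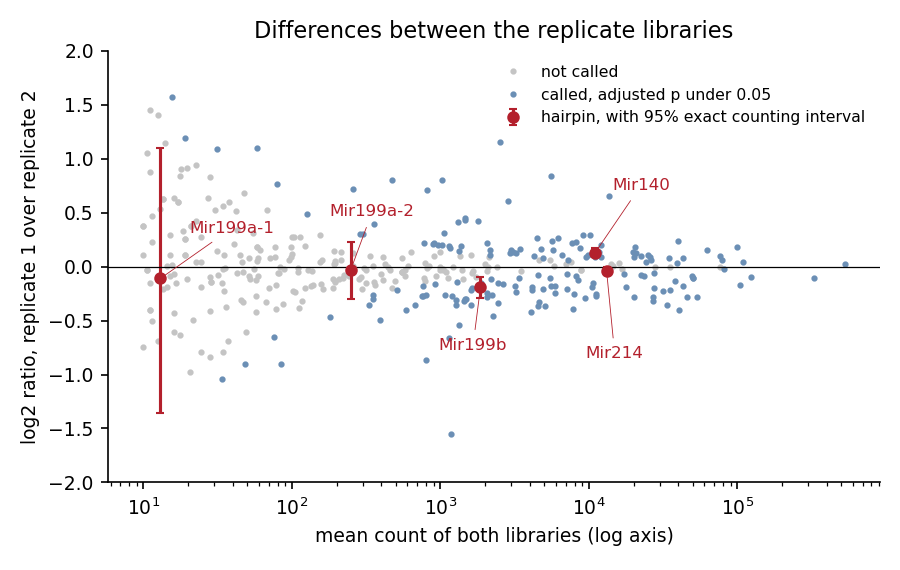
Log2 ratio of replicate 1 over replicate 2 against the mean count (log axis) for the 401 genes tested, blue where called; red points are the 5 hairpins with 95% exact counting intervals. Mir140 lies above 0 and Mir199b below it, both inside the cloud of other genes; 3 genes beyond ±2 are not shown.

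Other miRNAs known from connective tissue ranged from well above Mir214 to below Mir199a-1. The connective tissue list of 9 genes took up 1.11% of replicate 1 and 1.12% of replicate 2 gene counts, most of it Mir21a, a miRNA of fibroblasts and many other cells, with 7963 and 8114 CPM. Mir22, a broadly expressed miRNA, had 2100 and 2025 CPM. Mir455, the cartilage miRNA of the collagen gene Col27a1, had 600 and 605 CPM, close to Mir199b. The counting interval of its log2 ratio between the libraries, −0.13 to 0.05, included 0.

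The remaining genes of that list were lower. Mir31 had 248 and 209 CPM, Mir29c 130 and 128 CPM, Mir675, which is cut from the growth-linked RNA H19, 55.0 and 59.0 CPM, and Mir29a 44.2 and 30.8 CPM. Mir29b-1 and Mir29b-2, uncertain because their mature strand is made from several loci, had 4 and 2 counts and 6 and 8 counts. The miR-29 family is known to silence collagen mRNAs. Of 7 genes tested, Mir29a (0.49, adjusted p = 0.0174) and Mir31 (0.22, adjusted p = 0.00853) were called higher in replicate 1 and Mir21a lower (−0.06, adjusted p = 1.05e-05) in the exact binomial test. These 2 higher and 1 lower calls stand beside 19.7% and 23.7% of all genes tested, and the list's median log2 ratio was −0.01, beside −0.03 over all genes.

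Markers of other cell types were found in the same libraries. The vessel wall list held 0.390% and 0.334% of the gene counts, nearly all Mir143, a smooth muscle miRNA, with 3842 and 3284 CPM, close to Mir140. In the same list Mir145a had 53.7 and 57.1 CPM and Mir145b had 0 counts. The endothelial miRNA Mir126a had 2.90% and 3.19%, and the epithelial list, led by Mir429 with 3326 and 2662 CPM, 1.04% and 0.908%. The neural progenitor list held 1.98% and 1.74%, nearly all of it Mir92b (19407 and 17048 CPM). In the same list Mir9-3 had 363 and 315 CPM and Mir9-2 19 counts in each library, both uncertain for their several loci.

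As counted, without reads of several loci, the lists of neurons, muscle and red blood cells held smaller shares than the 5 hairpins. The neuronal list, led by Mir137 with 502 and 359 CPM, held 0.0512% and 0.0370%, and its Mir124a loci, uncertain for sharing a mature strand, had 3 to 18 counts in a library. Red blood cell miRNAs, led by Mir451a with 601 and 707 CPM, held 0.0661% and 0.0760%. Muscle miRNAs held 0.00421% and 0.00397%, led by the heart miRNA Mir208b with 28.9 and 27.1 CPM. In that list 4 of 7 genes, Mir1a-1, Mir133a-1, Mir133a-2 and Mir133b, had 0 counts, and 3 of those have near-identical copies whose reads were given to no gene.

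**Figure D5:**
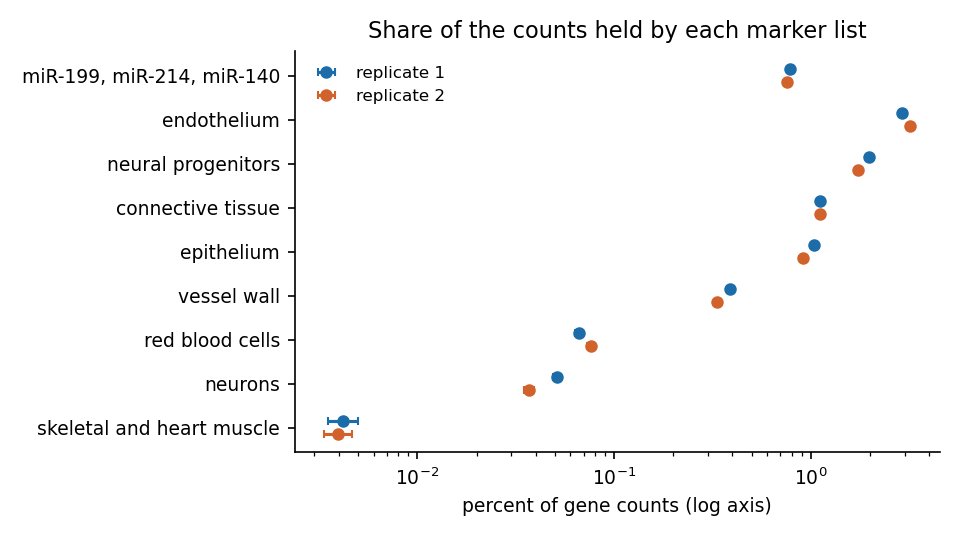
Percent of the gene counts (log axis) held by the 5 hairpins and by each marker list in replicate 1 and replicate 2, with 95% exact counting intervals. As counted, the 5 hairpins hold 0.785% and 0.757%, between the epithelial list (1.04% and 0.908%) and the vessel wall list (0.390% and 0.334%). Reads of several loci are left out, among them those of the strands that the miR-199 hairpins share.

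Single genes of these lists differed between the libraries as Mir140 or Mir199b did, in a comparison where 19.7% of all genes tested were called higher and 23.7% lower in replicate 1. Called higher, as Mir140 was, were 5 of 7 epithelial genes tested, 2 of 3 neural progenitor genes, 1 of 3 neuronal genes and 1 of 2 vessel wall genes. Among them were Mir137 (0.45, adjusted p = 3.23e-16), Mir429 (0.29, adjusted p = 1.94e-45) and Mir143 (0.20, adjusted p = 3.97e-25) in the exact binomial test. Called lower, as Mir199b was, were Mir126a (−0.17, adjusted p = 1.33e-153) and 1 of 2 red blood cell genes, Mir451a (−0.26, adjusted p = 5.36e-09), in the exact binomial test. Members of a list did not all go the same way. Beside Mir143 stood Mir145a at −0.12, beside Mir451a stood Mir144 at 0.14, and in the epithelial list Mir205 was at −0.04, none of these 3 called. Of 2 muscle genes tested 0 were called. The part of these cell types in the differences of Mir140 and Mir199b was not tested.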

How the data were processed

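Small RNA of mouse embryonic forebrain had been sequenced in 2 libraries of 1 group. The authors deposited unscaled read counts for each gene on either strand, on the strand of the gene and on the opposite strand, and per the deposited file notes used assembly mm10 and annotation M4. For the aligner, the trimming and the counter, names and settings were not given in the sources used here. Counts on the strand of the gene were used. The 4 tallies of unassigned reads, 62.0% and 63.0% of all reads, stayed out of library sizes and tests.

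Of 1973 identifiers, 1894 were named with GENCODE M21, whose positions for the 5 hairpins equal those of RefSeq. CPM is gene counts scaled to a total of 1000000. Genes averaging under 10 counts were left out first, TMM factors were computed on the rest with edgeR 4.0.16 (R 4.3.3), and log2 ratios of replicate 1 over replicate 2 used a pseudocount of 0.5 counts. The exact binomial test used a threshold of 0.05, and its procedure was tested on simulated data. Python 3.11.15 with scipy 1.17.1 did the rest. DESeq2 1.42.0 size factors were an alternative.

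The members and marker lists were chosen with earlier results of these data known. Named are the members, genes within 10 kb of them or sharing a seed, the 2 genes nearest in level (distance on log2 CPM with 1 CPM added), all connective tissue genes and the highest gene of each other list. Other genes named from the lists, such as Mir145a, Mir144, Mir205, Mir9-3 and the Mir124a loci, were picked after their values were seen. Mir126b, Mir9-1 and Mir1a-2 of the lists were not analysed here.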

Additional observations from a re-analysis of the deposited data

How the results depend on the processing

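The summed share of the 5 hairpins, 0.771%, was 0.744% with counts on either strand, 0.289% of all reads with the tallies included, and 0.912% without the most abundant gene in the total. From single libraries it was 0.757% and 0.785%. The number of genes called between the libraries, 174, stayed between 162 and 182 under other scalings, filters and strands, and fell to 23 with a fold above 1.5 also required. The number of hairpins called was 2 or 3 under those settings and 0 with that fold. The hairpin that entered was Mir214, without a filter (adjusted p = 0.00286) and with TMM over all genes (adjusted p = 0.00155), both by the exact binomial test. The calls of Mir140 and Mir199b held under the 7 alternatives run for them. Among these, the pseudocount of 5 counts enters only the log2 ratio and could not change a call. Of the recomputed log2 ratios between hairpins, 48 moved by less than the spread between replicates, 11 moved by more and 1 changed sign: Mir214 over Mir140 was −0.40 per base of the hairpin, since the annotated hairpins differ in length, against 0.25 per read. No paired analysis was possible because there is 1 group. The test was not run without a replicate, since it needs both libraries. Depth limits Mir199a-1, and reads of several loci limit all 3 miR-199 hairpins.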

Other observations

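The genes nearest to each hairpin in level over the 2 libraries are given as a description, with the distance on the log2 CPM scale. Mir214 was nearest to Mir135b (4229 and 4074 CPM, distance 0.16) and Mir324 (3714 and 3416 CPM, 0.18). Mir140 was nearest to Mir708 (3373 and 3099 CPM, 0.027) and Mir23a (3651 and 3256 CPM, 0.13). Mir199b was nearest to Mir485 of the imprinted Dlk1-Dio3 region (524 and 569 CPM, 0.034) and Mir542 (495 and 517 CPM, 0.16). Mir199a-2 was nearest to Mir194-2 and Mir129-2, both uncertain for their several loci, at distances of 0.030 and 0.050, and Mir199a-1 to Mir1934 and Mir5101, with 12 to 16 counts in a library. With only 2 libraries, and a median size of 0.17 for the log2 ratio between them over the genes tested, nearness in level says nothing of a shared pattern.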
